A study of Mus musculus with 7 samples.

Results

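The natriuretic peptide system was read as 9 genes in 7 mouse heart libraries: the peptide genes Nppa, Nppb and Nppc, the convertase genes Corin and Furin, the neprilysin gene Mme, and the receptor genes Npr1, Npr2 and Npr3. They were taken by name from a table of 23420 gene rows, and each name matched a row. The 4 control samples were Ctla4+/+ and the 3 ICI-myocarditis samples were Ctla4+/-, where ICI stands for immune checkpoint inhibitor. All 7 were labelled Pdcd1-/-, the controls included, Pdcd1 being the gene of PD-1. The animals were untreated and 3 to 6 weeks old, and the model is inherited loss of checkpoint genes in the whole body, not drug exposure. RNA came from flash-frozen cardiac ventricle, although the tissue label reads whole heart, and total RNA was sequenced in bulk. Each sample is called a heart below, but the labels do not say that each came from its own animal, so p-values measure the spread between these samples, which may be technical. The comparison asked how transcripts of the heart with myocarditis differ from those of the control heart.

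Heart muscle cells make atrial natriuretic peptide (ANP, from Nppa) and B-type natriuretic peptide (BNP, from Nppb) when their walls are stretched or stressed, and BNP in blood is a clinical marker of heart failure. Both peptides are cut from longer precursors, pro-ANP by corin and pro-BNP mainly by furin and corin. They bind the receptor encoded by Npr1, a guanylyl cyclase that makes the second messenger cyclic GMP, while Npr2 encodes the cyclase receptor for C-type natriuretic peptide (from Nppc). Npr3 encodes a receptor without a cyclase that removes the peptides from the circulation, and neprilysin, a membrane peptidase encoded by Mme, degrades them.

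Both cardiac peptide genes rose and the neprilysin gene fell in ICI-myocarditis, while no convertase or receptor gene passed the test. Nppa rose about 12.1-fold, Nppb about 3.03-fold, and Mme fell about 7.69-fold. Of the 9 genes 8 were abundant enough to test, and 3 of these 8 passed limma's adjusted p of 0.05, 2 higher and 1 lower. Over all 15236 genes tested 2392 passed, which is 15.7%, with 11.7% higher and 4.00% lower. Groups did not overlap for 4 of the 8 genes (Nppa, Nppb, Mme and Npr2), against 28.6% of all genes tested. The count over all genes was 983 without ICI-myocarditis 3, 1294 without control 3, 1390 without ICI-myocarditis 2, 1505 without control 1 and 3333 without control 2. Nppa and Mme were among the genes called in each of these fits.

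The share of all genes called is given for each setting in which the 8 genes were read again. It was 15.5% and 16.2% with pseudocounts of 0.5 and 5, 12.2% without a filter, 15.8% with a filter of 50, 13.0% with library-size scaling, 15.4% with TMM scaling and 16.0% without robust variance. By other tools it was 13.6% (edgeR), 22.6% (DESeq2) and 26.2% (limma-voom), and 20.2% in the authors' deposited table. It was 11.7% with a replicate block. Leaving out controls 1 to 4 gave 9.92%, 22.1%, 8.56% and 13.8%, and leaving out ICI-myocarditis 1 to 3 gave 10.6%, 9.25% and 6.54%. Of the 8 genes 2 to 4 passed in these fits.

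**Figure D1:**
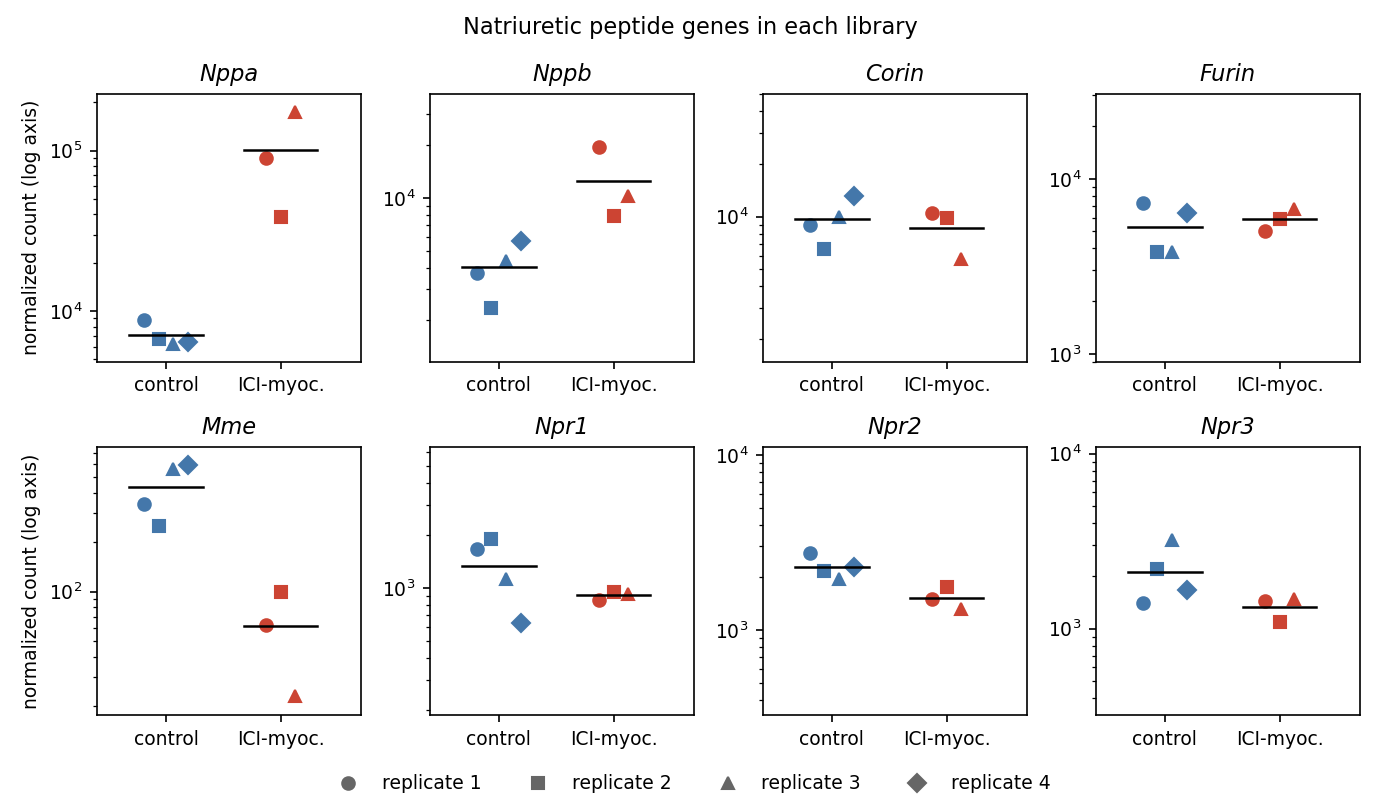
Normalized counts of 8 genes in each library on log axes, with 1 point per library, shapes for replicate numbers and a line at each group mean. All 3 ICI-myocarditis points lie above all controls for Nppa and Nppb and below them for Mme and Npr2, and the groups overlap for Corin, Furin, Npr1 and Npr3.

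The libraries held between 20931730 and 39037176 reads assigned to genes. Values below are normalized counts, that is read counts divided by a size factor for each library. Control 2 stood apart from the other controls in T cell genes. Its summed level of 5 such genes was 1158 normalized counts, against 96.3 to 144 in controls 1, 3 and 4 and 5464 to 8319 in ICI-myocarditis. Control 2 also had the lowest summed level of 10 cardiomyocyte genes among controls, 2446590, against 3707300 to 4814840 in the others. In ICI-myocarditis this sum was 1889230 to 2902360. In bulk tissue fewer cells of a type and less RNA per cell cannot be told apart. Of the targeted genes, Pdcd1 had 2.50 to 244 normalized counts in controls and 1096 to 1481 in ICI-myocarditis, and Ctla4 had 29.2 to 113 and 251 to 373. Both had reads and were higher in ICI-myocarditis. A total per gene takes in exons outside a deletion as well, so these levels check nothing about the genotypes.

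Nppa, the gene of ANP, had 8778, 6717, 6265 and 6420 normalized counts in controls 1 to 4. In ICI-myocarditis 1 to 3 it had 89307, 38489 and 174572. Controls lay close together, with an SD of 1170 around a mean of 7045, and the lowest ICI-myocarditis heart was more than 4 times the highest control. ICI-myocarditis hearts differed widely among themselves, with a mean of 100789 ± 68764 (SD, n = 3). The log2 fold change was 3.60 (95% interval 2.56 to 4.63, SE 0.460, limma adjusted p = 0.00317). Nppa passed the test under all 18 alternative settings, with log2 fold changes from 2.99 to 4.16. Without control 2 the value was 3.58, and without ICI-myocarditis 3, the heart with the highest level, it was 3.07. As a share of all reads, Nppa took 0.0172% to 0.0267% in controls and 0.136%, 0.312% and 0.650% in the ICI-myocarditis hearts.

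Nppb, the gene of BNP, had 3706, 2351, 4375 and 5703 normalized counts in controls 1 to 4 and 19437, 7861 and 10273 in ICI-myocarditis 1 to 3. The groups did not overlap, but the gap between the highest control and the lowest ICI-myocarditis heart was narrower than for Nppa. The mean rose from 4034 ± 1395 (SD, n = 4) to 12524 ± 6107 (SD, n = 3), with a log2 fold change of 1.60 (95% interval 0.74 to 2.46, SE 0.383, limma adjusted p = 0.0229). This call was less firm than that of Nppa. The limma adjusted p was 0.0657 without control 1, 0.0582 without control 3, 0.0677 without ICI-myocarditis 1 and 0.0625 without ICI-myocarditis 3, with log2 fold changes of 1.58, 1.66, 1.23 and 1.69. Without control 2 the log2 fold change was 1.36 and the call held (limma adjusted p = 0.0243).

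The 2 peptide genes did not rise by an equal factor, and they did not peak in the same heart. ICI-myocarditis 3 had the highest Nppa and ICI-myocarditis 1 the highest Nppb, while ICI-myocarditis 2 was the lowest of the 3 for both. The count of Nppa was 2.37, 2.86, 1.43 and 1.13 times that of Nppb in controls 1 to 4 and 4.59, 4.90 and 17.0 times in ICI-myocarditis 1 to 3. On the log2 scale this ratio was 2.00 higher in ICI-myocarditis, from 0.86 ± 0.62 (SD, n = 4) to 2.86 ± 1.06 (SD, n = 3). The groups did not overlap, and the p was the smallest that 4 against 3 allows (exact two-sided permutation p = 0.0286, adjusted over 6 ratios 0.0429). Leaving out 1 library in turn gave differences from 1.38 to 2.33, with 1.38 without ICI-myocarditis 3.

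Tissue of the atria, where Nppa is normally most active, could raise its level in a ventricle sample, so atrial genes were read in each library. Of 6 atrial genes Bmp10 was at 0 in all 7 libraries, and Sln, which encodes the sarcolipin of atrial muscle, had at most 3.70 normalized counts in controls, against 0.72 with ICI-myocarditis. Myl7, the atrial myosin light chain gene, had 8.07, 2.47, 48.0 and 7.51 in controls 1 to 4 and 13.3, 4.35 and 20.6 in ICI-myocarditis 1 to 3. Its groups overlapped, and within ICI-myocarditis it followed the same order of hearts as Nppa. Myl4 had 48.4 to 72.6 and 47.1 to 56.3. Kcnj3 had 543 to 2026 in controls and 196 to 816 in ICI-myocarditis. The summed level of the 6 genes was 617 to 2097 in controls and 271 to 873 in ICI-myocarditis. Most of that sum was Kcnj3, and the part of atrial tissue in the level of Nppa was not tested. The ventricular genes Myl2, Myl3 and Irx4 summed to 166388 to 545789 and 92342 to 295962.

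Nppa and Nppb are neighbours on chromosome 4 and are read in the same direction. In GENCODE release M21 (GRCm38) Nppa spans 148000722 to 148002079 and Nppb 147985788 to 147987205, with starts 14.9 kb apart. Of the tested genes around the pair, 5 are given here, and none of the 5 passed the test. On the side of Nppb the log2 fold changes were 0.34 for 2510039O18Rik, -0.42 for Plod1 and -0.62 for Mfn2 (limma adjusted p = 0.425, 0.221 and 0.249). On the side of Nppa they were -0.04 for Clcn6 and 0.37 for Agtrap (limma adjusted p = 0.945 and 0.362), and the sign for Clcn6 changed under 5 of 18 alternatives. Mfn2 encodes a mitochondrial fusion protein and Clcn6 a chloride transporter of endosomes. The intervals of these 5 neighbours included 0, and none of their upper bounds reached the lower bound of Nppa. Those of 2510039O18Rik (0.92) and Agtrap (0.93) lay above the lower bound of Nppb (0.74). An antisense gene (Gm13054) overlaps Nppa on the other strand and is not a row of the table. Corin, Furin, Npr1, Npr2 and Npr3 are also overlapped by a gene on the other strand that is not a row, which makes 6 of the 9 genes. Use of strand in the counting is not given in the sources used here. Reads of such a gene and of the gene it overlaps therefore cannot be told apart.

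**Figure D2:**
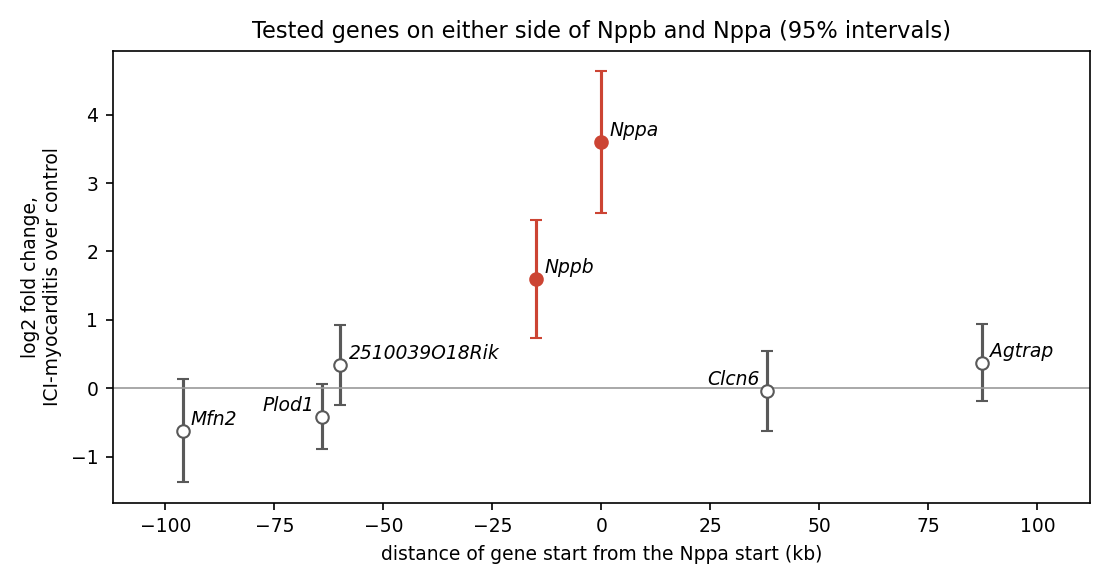
Log2 fold change with 95% interval against the distance in kb of each gene's start from that of Nppa, for Nppa, Nppb and 5 tested genes around them. Filled red points passed limma's adjusted p of 0.05. Nppa at 3.60 and Nppb at 1.60 lie above the 5 neighbours, which run from -0.62 to 0.37.

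The start regions of both genes are shown because these adjacent genes moved together by unequal amounts. Each runs from 250 bases before to 50 bases after the RefSeq start, on the plus strand of GRCm38.p6, at chr4:148000472-148000771 for Nppa and chr4:147985650-147985949 for Nppb. The RefSeq start of Nppa is also its GENCODE start. For Nppb the GENCODE start (147985788) lies inside the window, upstream of the RefSeq start, and match positions below are counted from the RefSeq start. Capitals mark matches, on either strand, to short motifs of factors known in heart muscle or general transcription: the GATA motif AGATAA and its other form TGATAA, the NKE motif of Nkx2-5 written TNAAGTG, the M-CAT motif of TEAD factors written CATTCC, the AP-1 motif TGANTCA, the CArG box of SRF, and the TATA motif TATAAA.
Nppa: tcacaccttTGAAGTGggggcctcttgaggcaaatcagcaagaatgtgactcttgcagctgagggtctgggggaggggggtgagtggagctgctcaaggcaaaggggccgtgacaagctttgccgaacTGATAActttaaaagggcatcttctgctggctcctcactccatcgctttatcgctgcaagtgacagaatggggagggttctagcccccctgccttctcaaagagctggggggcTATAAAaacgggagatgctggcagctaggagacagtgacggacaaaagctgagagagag
Nppb: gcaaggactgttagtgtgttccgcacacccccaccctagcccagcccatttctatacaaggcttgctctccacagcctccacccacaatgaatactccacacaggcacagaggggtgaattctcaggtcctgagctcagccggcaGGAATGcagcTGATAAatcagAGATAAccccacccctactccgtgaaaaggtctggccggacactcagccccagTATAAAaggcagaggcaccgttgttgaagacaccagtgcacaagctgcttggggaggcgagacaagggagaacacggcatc
The Nppa window held 1 GATA match (TGATAA, first base at -122 from the start), 1 NKE match (-241) and 1 TATA match (-9). The Nppb window held 2 GATA matches (TGATAA at -95 and AGATAA at -84), 1 M-CAT match on the opposite strand (-105) and 1 TATA match (-31). No marked matches overlapped, and neither window held an AP-1 or CArG match. Of 32817 RefSeq windows of this length, AGATAA was in 11.2%, TGATAA in 9.06%, NKE in 11.5%, M-CAT in 14.7%, AP-1 in 7.81%, CArG in 1.63% and TATA in 13.6%. A match describes letters and does not show binding.

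Nppc, the gene of C-type natriuretic peptide, was not detectable at this depth. It had 0 reads in the 4 controls and in ICI-myocarditis 1, and 1 read each in ICI-myocarditis 2 and 3. Both groups lay under 3 reads per library, so no fold change is given, and Nppc was not tested in the main fit. In the fit without a filter it did not pass (limma adjusted p = 0.411).

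The convertase genes did not pass the test. Corin encodes the membrane protease of heart muscle that activates pro-ANP. It had 8978, 6551, 10003 and 13140 normalized counts in controls 1 to 4 and 10493, 9815 and 5699 in ICI-myocarditis 1 to 3. The groups overlapped, and ICI-myocarditis 3, the heart with the highest Nppa, had the lowest Corin of all 7. The log2 fold change of Corin was -0.16 (95% interval -0.88 to 0.56, SE 0.319, limma adjusted p = 0.780). Without ICI-myocarditis 3 it lay above 0, at 0.11. Furin encodes a protease of the Golgi that cleaves many precursors in most cell types. It had 7258, 3840, 3803 and 6341 normalized counts in controls, against 5001, 5866 and 6713 with ICI-myocarditis, so all 3 ICI-myocarditis hearts lay within the range of controls. Its log2 fold change was 0.19 (95% interval -0.46 to 0.84, SE 0.289, limma adjusted p = 0.708). As folds the intervals ran from 0.542 to 1.47 for Corin and from 0.728 to 1.79 for Furin, so changes inside those bounds are not told apart from no change.

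Corin was therefore set against the substrate gene and against other genes of the same cells. The count of Nppa was between 0.489 and 1.03 times that of Corin in controls, and 8.51, 3.92 and 30.6 times in ICI-myocarditis 1 to 3. The log2 ratio of Nppa to Corin was 3.76 higher in ICI-myocarditis, and the groups did not overlap (exact two-sided permutation p = 0.0286, adjusted 0.0429). Most of this difference was that of Nppa, with a log2 fold change of 3.60 against -0.16 for Corin. The ratio was 2.96 higher without ICI-myocarditis 3 and 4.44 higher without ICI-myocarditis 2. All 10 cardiomyocyte genes had a log2 fold change below 0, with a median of -0.67, but none passed limma's test (2 had an unadjusted p under 0.05). The counts of called cardiomyocyte genes were 0 by edgeR, 4 by DESeq2 and 2 by limma-voom. Over all genes tested the shares called were 15.7% by limma, 13.6% by edgeR, 22.6% by DESeq2 and 26.2% by limma-voom. Relative to the mean log2 level of these 10 genes, Corin was higher in every ICI-myocarditis heart than in any control. The log2 ratio went from -4.03 ± 0.21 (SD, n = 4) to -3.46 ± 0.25 (SD, n = 3), a difference of 0.57 (exact two-sided permutation p = 0.0286, adjusted 0.0429). Corin itself was not higher, with a log2 fold change of -0.16 against the median of -0.67 for the 10 genes. A gene without any change would also come out higher on this ratio, so it does not show a rise of Corin. The part of muscle cell content in this ratio was not tested.

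Mme, the neprilysin gene, fell. It had 344, 250, 557 and 587 normalized counts in controls 1 to 4 and 62.4, 99.3 and 22.9 in ICI-myocarditis 1 to 3. Every ICI-myocarditis heart was below every control, and ICI-myocarditis 3 was the lowest, with 30 reads. The mean went from 435 ± 164 (SD, n = 4) to 61.5 ± 38.2 (SD, n = 3), a log2 fold change of -2.94 (95% interval -4.07 to -1.82, SE 0.498, limma adjusted p = 0.00627). Mme passed under all 18 alternatives, with values from -3.40 to -2.36. The values were -3.18 without control 2 and -2.36 without ICI-myocarditis 3. Per kilobase of exon Mme was the least abundant of the 8 tested genes in both groups.

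Among the 7 hearts the levels of Mme and Nppa ran opposite within ICI-myocarditis: ICI-myocarditis 3 had the highest Nppa and the lowest Mme, and ICI-myocarditis 2 the lowest Nppa and the highest Mme. Nppb did not follow that order. With 3 hearts this is given as a description.

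The receptor genes all had lower means in ICI-myocarditis, and none passed the test. Npr2, the cyclase receptor for C-type natriuretic peptide, had 2739, 2158, 1962 and 2282 normalized counts in controls, against 1509, 1748 and 1324 with ICI-myocarditis. The groups did not overlap, as was so in the lower direction for 11.3% of all genes tested. The log2 fold change of Npr2 was -0.58 (95% interval -1.01 to -0.15, SE 0.192, limma adjusted p = 0.0728). DESeq2 on the recovered reads put Npr2 past the threshold (adjusted p = 0.0310), as did the authors' deposited table (log2 fold change -0.58, adjusted p = 0.0393). edgeR's quasi-likelihood test did not (adjusted p = 0.0697).

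Npr3, the clearance receptor, had 1394, 2195, 3218 and 1667 normalized counts in controls, against 1429, 1089 and 1483 with ICI-myocarditis. Control 3 was the highest, and control 1 lay among the ICI-myocarditis hearts. The log2 fold change of Npr3 was -0.61 (95% interval -1.26 to 0.04, SE 0.289, limma adjusted p = 0.195). limma-voom with quality weights gave a larger fall of 0.99 that passed (adjusted p = 0.0211), and no other alternative passed. Npr1, the receptor of ANP and BNP, had 1675, 1921, 1131 and 629 normalized counts in controls, against 857, 947 and 920 with ICI-myocarditis. The 3 ICI-myocarditis hearts were nearly alike, with an SD of 46.0, and lay inside the wide range of controls, whose SD was 577. The log2 fold change of Npr1 was -0.44 (95% interval -1.23 to 0.35, SE 0.351, limma adjusted p = 0.449). The log2 ratio of Npr3 to Npr1 did not differ beyond the spread of hearts, with 0.71 ± 0.88 over the 4 controls and 0.54 ± 0.30 over the 3 ICI-myocarditis hearts (mean and SD) (exact two-sided permutation p = 0.83, adjusted 0.83).

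Npr1 is expressed by endothelium in the heart, and all 12 endothelial genes read beside it had a log2 fold change below 0. The 12 endothelial genes summed to 45522 to 115260 normalized counts in controls and 34809 to 43263 in ICI-myocarditis. Their median log2 fold change was -1.01. As lower, 4 of 12 passed limma's test, where 4.00% of all genes tested did. Of the 12, 1 was called with library-size scaling and 2 without ICI-myocarditis 3, where 13.0% and 6.54% of all genes were. DESeq2 and limma-voom each called 9, where 22.6% and 26.2% of all genes were. Control 2 had both the highest Npr1 and the highest endothelial sum, and the order of the 4 controls was the same by either measure, down to control 4. Relative to the mean log2 level of the 12 genes, Npr1 had log2 ratios of -1.80, -1.87, -2.09 and -2.23 in controls 1 to 4. In ICI-myocarditis 1 to 3 they were -1.41, -1.53 and -1.51, a difference of means of 0.51 ± 0.16 (pooled SD). The groups did not overlap (exact two-sided permutation p = 0.0286, adjusted 0.0429). Npr1 itself was not higher, with a log2 fold change of -0.44 against the median of -1.01 for the 12 genes. The part of endothelial cell content in this ratio was not tested. For Npr3, which marks endocardium as well as other cells, the same ratio differed by 0.34, within the spread of hearts (exact two-sided permutation p = 0.457, adjusted 0.549). Of 5 endocardial genes 4 were tested, and their sum was 5725 to 10164 in controls and 7151 to 10538 in ICI-myocarditis. Most of that sum was Vwf. Cytl1 was the called endocardial gene, with a log2 fold change of -2.78 (limma adjusted p = 0.00366), where 4.00% of all genes tested passed as lower. The other 3 tested, Plvap, Cdh11 and Vwf, lay above 0 and did not pass, and the median of the list was 0.26.

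**Figure D3:**
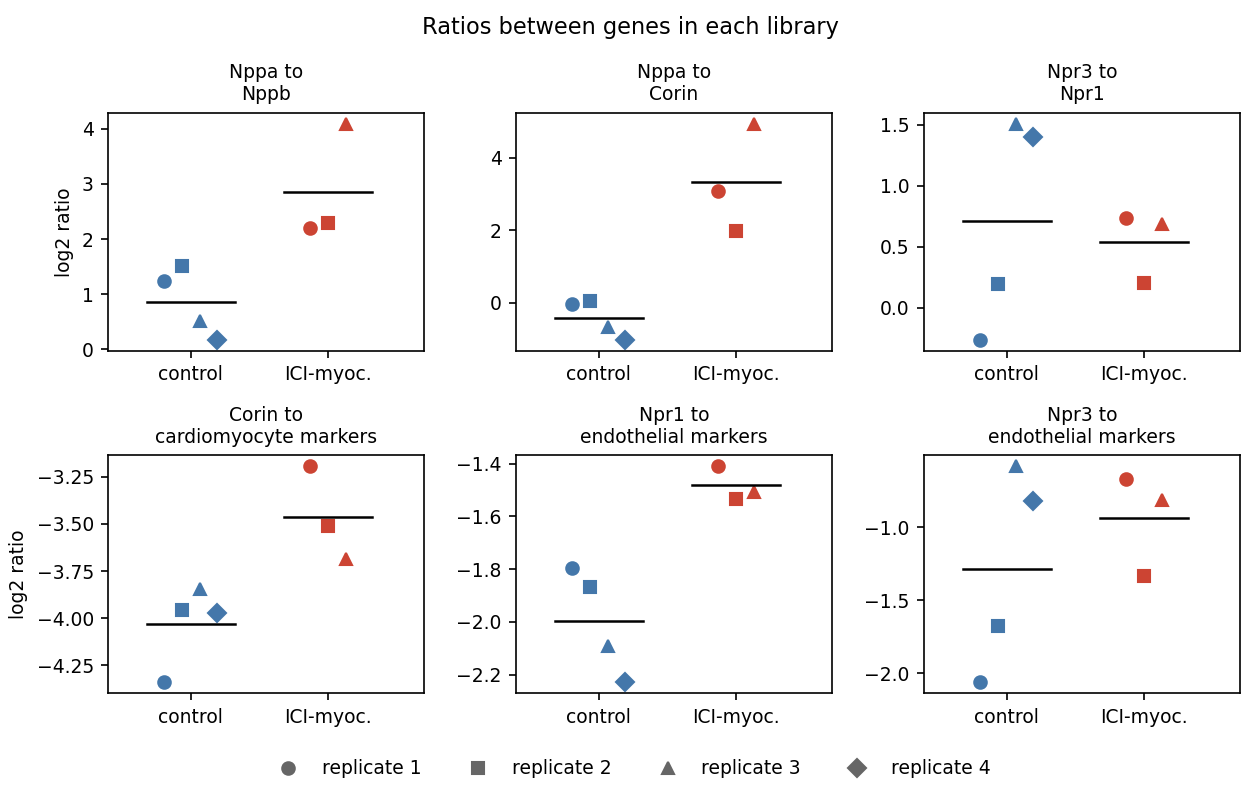
Log2 ratios in each library, with 1 point per library, shapes for replicate numbers and a line at each group mean. The groups do not overlap for Nppa to Nppb, Nppa to Corin, Corin to the cardiomyocyte mean and Npr1 to the endothelial mean, and they overlap for both ratios of Npr3.

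Levels were compared between genes as normalized counts per kilobase of exon, with exon lengths from GENCODE release M21. In controls the order of mean levels was Nppa (8144 ± 1353 per kb), Nppb (5165 ± 1787), Corin (1790 ± 505), Furin (579 ± 192), Npr2 (490 ± 70.8), Npr1 (280 ± 121), Npr3 (226 ± 85.7) and Mme (37.6 ± 14.2), each with an SD over 4 hearts. Ranges overlapped between Nppa and Nppb, between Furin and Npr2, and between Npr1 and Npr3, so the ranges do not separate the neighbours in these pairs. In ICI-myocarditis the order was the same: Nppa reached 116520 ± 79496 per kb and Nppb 16035 ± 7820, followed by Corin (1605 ± 480), Furin (638 ± 93.3), Npr2 (327 ± 45.5), Npr1 (190 ± 9.62), Npr3 (142 ± 22.7) and Mme (5.33 ± 3.31), each with an SD over 3 hearts. No neighbours in this order overlapped there. The lowest Nppa was 44496 per kb and the highest Nppb 24887.

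**Figure D4:**
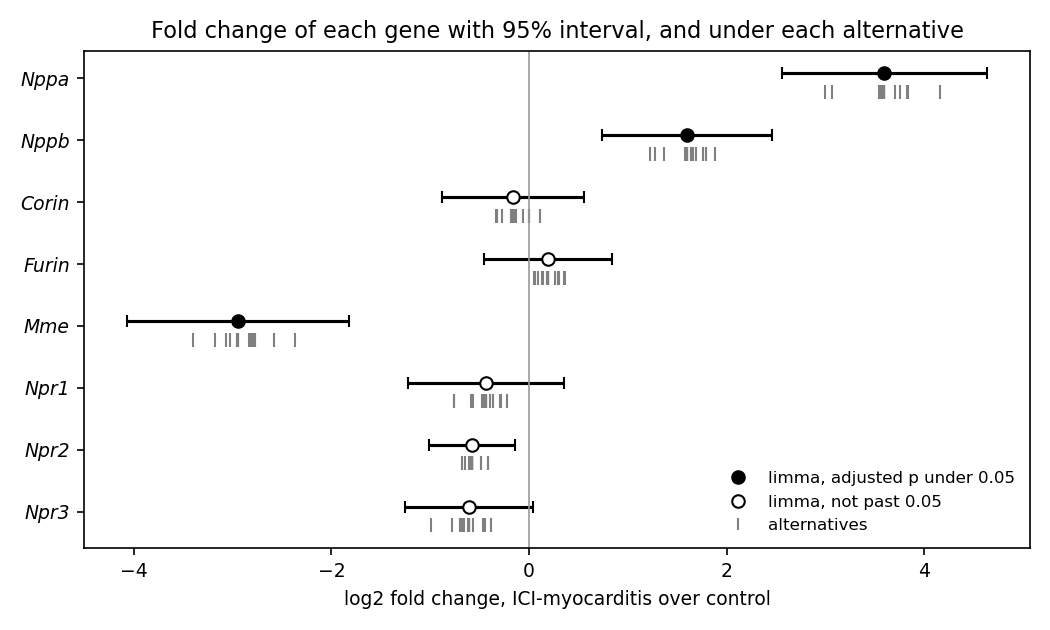
Log2 fold change of 8 genes, ICI-myocarditis over control. Circles with bars are limma estimates with 95% intervals, filled where the adjusted p was under 0.05, and grey ticks are the values under the 18 alternatives. The ticks of Nppa (2.99 to 4.16) and Mme (-3.40 to -2.36) stay far from 0, and those of Corin reach 0.11.

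Downstream of the receptors, cyclic GMP acts through protein kinase G and is removed by phosphodiesterases. Of 22 genes of cyclic GMP signalling 8 passed limma's test, 6 lower and 2 higher, where 15.7% of all genes tested passed, 4.00% lower and 11.7% higher. The median log2 fold change was -0.25, against -0.02 over all genes tested. Of the subunit genes of the soluble cyclase that responds to nitric oxide, Gucy1a2 fell by 1.26 and Gucy1b3 (now Gucy1b1) by 0.80 on the log2 scale (limma adjusted p = 0.00917 and 0.0305). Gucy1a3 (now Gucy1a1), the third of them, did not pass, at -0.64 with overlapping groups (limma adjusted p = 0.151). Pde2a, a phosphodiesterase stimulated by cyclic GMP, fell by 0.95, and Pde3b, one inhibited by cyclic GMP, rose by 0.83 (limma adjusted p = 0.0411 and 0.0225). Mrvi1 (now Irag1), a kinase G substrate of smooth muscle, fell by 1.26, Rgs4, a brake on G proteins, by 1.09, and the potassium channel gene Kcnma1 by 1.74 from a low level (limma adjusted p = 0.0157, 0.00969 and 0.0395). Vasp, a kinase G substrate that binds actin, rose by 0.95 (limma adjusted p = 0.0427).

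The kinase gene Prkg1 itself did not pass, with 955 to 1112 normalized counts in controls, 841 to 957 in ICI-myocarditis and a log2 fold change of -0.21 (limma adjusted p = 0.448). Pde5a, the target of sildenafil, was at -0.68 (limma adjusted p = 0.102). The count of called genes fell to 3 of 22 with scaling by library size, 2 without ICI-myocarditis 1 or 3, 3 without control 3, and 4 without control 1 or ICI-myocarditis 2. Gucy1a2 and Rgs4 passed under all 18 alternatives, Mrvi1 under 15, Pde3b under 14, Gucy1b3 and Pde2a under 11, Kcnma1 under 11 of 17 and Vasp under 8. Markers of mural cells, that is pericytes and smooth muscle, were read beside these genes. Their sum over 8 genes was 56424 to 79301 in controls and 24922 to 35663 in ICI-myocarditis. As lower, 4 of 8 passed limma's test, where 4.00% of all genes tested did. Of the 8 mural genes, 2 were called with library-size scaling and 1 without ICI-myocarditis 3, where 13.0% and 6.54% of all genes were. DESeq2 and limma-voom each called 5, where 22.6% and 26.2% of all genes were. The part of mural cells in the result was not tested.

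Other genes of peptide processing and breakdown were tested for 8 of 12 listed, and 0 passed by limma, edgeR, DESeq2 or limma-voom, with 0 at an unadjusted p under 0.05, where 15.7% of all genes tested passed by limma. The lowest p-values were those of Dpp4, a peptidase that also trims BNP, with a log2 fold change of 0.65, and Ece1, the endothelin-converting enzyme, with -0.43 (limma adjusted p = 0.269 and 0.293). Pcsk6, the protease that activates corin, had 2146 to 5019 normalized counts in controls and 2265 to 3130 in ICI-myocarditis. Ostn, the gene of osteocrin, a ligand of the clearance receptor, had 0 reads in controls and 7.16, 0.72 and 0 normalized counts in ICI-myocarditis.

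Of 22 regulators of natriuretic peptide genes in heart muscle, 2 passed limma's test, both higher, which is no larger a share than the 15.7% of all genes tested (11.7% higher) and no result about the list. The median log2 fold change was -0.22. Nfatc1 rose by 1.14 and Nfatc2 by 0.87 (limma adjusted p = 0.0235 and 0.0412), members of a family of calcineurin-dependent factors that T cells also use. All 5 T cell genes and all 5 macrophage genes were called higher beside them, with median log2 fold changes of 5.20 and 2.36. The share called higher was 11.7% over all genes tested. The part of these cells in the result was not tested. The calls were 0 of 22 without control 3, ICI-myocarditis 2 or ICI-myocarditis 3, and 1 without control 1 or control 4. Gata4, whose product binds GATA motifs, had 3133 to 4882 normalized counts in controls and 2682 to 3319 with ICI-myocarditis (log2 fold change -0.42, adjusted p = 0.232 by limma). Mef2c was lower in all 3 ICI-myocarditis hearts than in any control, as were 11.3% of all genes tested, but did not pass (-0.58, limma adjusted p = 0.0698). In the authors' deposited table Mef2c passed (log2 fold change -0.57, adjusted p = 0.0297), where 20.2% of all genes did.

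Genes that heart muscle switches on under stress or in the fetal heart did not all move with Nppa. Of 7 such genes 2 passed, where 11.7% of all genes tested passed as higher: Ankrd1 with a rise of 2.00 and Gdf15 with 1.95 (limma adjusted p = 0.00600 and 0.0242), and the median was 0.74. Ankrd1, which encodes a stretch-sensing repeat protein of the sarcomere, had 77862, 80513 and 74569 normalized counts in ICI-myocarditis and 12080 to 28945 in controls. Its ICI-myocarditis hearts were nearly alike, unlike those of Nppa. Myh7, the slow myosin gene, had 9185, 8480 and 45105 in ICI-myocarditis, highest in the same heart as Nppa, and 5635 to 16953 in controls (log2 fold change 0.50, limma adjusted p = 0.636). Acta1, skeletal actin, was at -0.09 (limma adjusted p = 0.917). The count of called genes was 1 without control 3, ICI-myocarditis 1, ICI-myocarditis 2 or ICI-myocarditis 3.

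**Figure D5:**
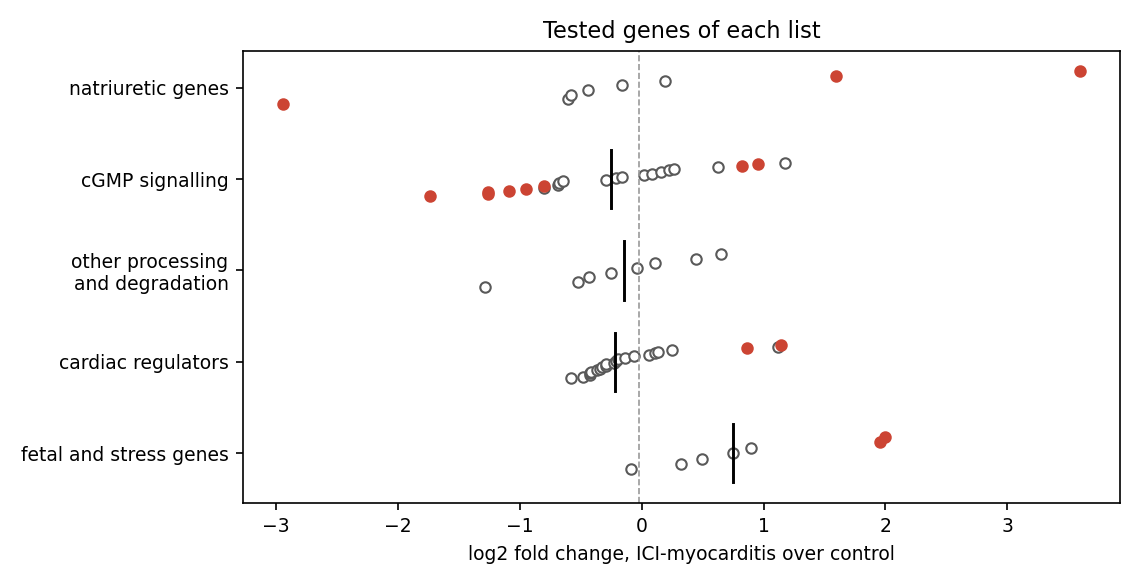
Log2 fold change of the tested genes of each list, 1 point per gene, filled red where limma's adjusted p was under 0.05. Short black lines are list medians and the dashed line is the median over all genes tested (-0.02). Of the natriuretic genes Nppa, Nppb and Mme are filled.

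Genes whose profiles over the 7 libraries were most like those of Nppa, Nppb and Mme were found by the root-mean-square difference of centred log2 values, a description without a test. For Nppa the closest was Lrp8, a lipoprotein receptor gene, at a distance of 0.33, followed by Ms4a8a, Serpina3n, Slc17a6 and Cilp (0.39 to 0.54). Ms4a8a had 1.25 to 5.04 normalized counts in controls and Slc17a6 had 0, so both reached the filter only through ICI-myocarditis. The log2 fold change of Slc17a6 ran from 2.29 to 7.45 over 14 alternatives, so its place in this order is weak. Lrp8 had 18.8 to 29.6 normalized counts in controls, against 302, 214 and 504 with ICI-myocarditis, with the same order of the 3 hearts as Nppa. Cilp, a matrix gene of fibroblasts, had 712 to 1185 in controls and 6305, 8084 and 17767 in ICI-myocarditis. For Nppb the closest was Tnfrsf12a, the receptor gene of the cytokine TWEAK, at 0.28, followed by Tmem37, Ccl9, Txn1 and Ccl6 (0.30 to 0.32). Tnfrsf12a had 347 to 734 normalized counts in controls, against 1736, 1081 and 1511 with ICI-myocarditis, again with the highest value in ICI-myocarditis 1. For Mme the closest were Dcaf12l1 (0.29), the potassium channel subunit gene Kcnv2 (0.34), Lrtm1, Fcrls and Wif1 (0.41 to 0.43). Dcaf12l1 had 86.3 to 195 normalized counts in controls, against 27.6, 39.1 and 9.93 with ICI-myocarditis, in the same order of the 3 hearts as Mme.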

How the data were processed

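The authors deposited 1 table for the 7 libraries. Reads were aligned with STAR 2.7.3 to GRCm38 (mm10), per the submitters' processing notes. The counting program and use of strand are not given in the sources used here. Its per-library values are a signal, read counts divided by the authors' size factors: 100% of values were whole multiples of the column's smallest step (tolerance 0.05), which gave back the reads. For control 1 that step was 1.01, a weaker sign. The table also holds the authors' log2 fold changes, a score (the test statistic) and p-values, per the file headers, and its tool is not stated. Rows named as dates (27, 0.143% of reads) were left out.

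limma 3.58.1 (R 4.3.3) with trend and robust variance was fitted to log2(normalized count + 1) of the 15236 genes that reached 10 normalized counts in 3 or more libraries, with Benjamini-Hochberg adjustment over all of them and a threshold of 0.05. Fold changes are on that scale, which understates those of low genes. Ratios were tested by exact permutation over 35 splits. Alternatives were pseudocounts of 0.5 and 5, no filter or one of 50, library-size and TMM scaling, limma without robust variance, limma-voom, edgeR 4.0.16 and DESeq2 1.42.0 on the recovered reads, a replicate block and leaving out each library. The fits were tested on simulated data.

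The genes and lists were chosen with earlier results of these data known. Named genes were the 9 genes, the called genes of 4 lists (or the 2 with the lowest p-value), the 3 tested neighbours on each side of Nppa and Nppb and the 5 closest profiles. Results of some genes under this rule and of the marker lists are not reported here. Further list genes (Gucy1a3, Prkg1, Pde5a, Pcsk6, Ostn, Gata4, Mef2c, Myh7 and Acta1) were named after their values were seen, for their role. Promoter windows are from RefSeq (GRCm38.p6), which matched all 9 genes. Lists of fibroblast, neutrophil and B cell genes were read as well. Of 7 fibroblast genes 1 passed, with sums of 62950 to 103858 normalized counts in controls and 74408 to 117791 in ICI-myocarditis. Of 3 neutrophil genes 1 passed (45.4 to 207 and 315 to 866), and of 4 B cell genes 1 (47.4 to 118 and 114 to 148). Over all genes tested 15.7% passed.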

Additional observations from a re-analysis of the deposited data

How the results depend on the processing

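Nppa and Mme kept their direction and their call under all 18 alternatives, Nppb under 14, and Furin and Npr1 stayed uncalled in the same direction under all 18. Over all genes the count of calls was 3998 with limma-voom and quality weights, and 983 to 3333 when 1 library was left out. Scaling by library size moved the median log2 fold change of all genes from -0.02 to 0.13. With it 3 of 22 cyclic GMP genes were called, and 2 to 9 without 1 library. Of the other processing genes 0 to 1 were called without 1 library, and 1 with the replicate block. Of the regulators 4 were called with limma-voom, 0 with the replicate block and 0 to 2 without 1 library. Of the stress genes 1 was called with the replicate block and 1 to 2 without 1 library. Among single values, leaving out 1 library gave 1.23 to 1.88 for Nppb and -0.34 to 0.11 for Corin, the sign of Corin turning without ICI-myocarditis 3. Npr2 passed with DESeq2 (-0.58) and Npr3 with limma-voom (-0.99). Clcn6 turned positive with library-size scaling (0.12), limma-voom (0.016) and without control 1 (0.03), control 2 (0.13) or ICI-myocarditis 1 (0.06), a range of -0.17 to 0.13 without 1 library. For other changes between settings the cause was not tested. Each of the 6 ratios moved by less than 1 SD under pseudocounts of 0.5 and 5 and without any 1 library, where the splits are too few for an exact test to reach 0.05.

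Same-numbered libraries correlated at -0.27, -0.21 and -0.08 in their deviations from the group means. Libraries of different number correlated at -0.48 to 0.45, so the 3 values do not decide whether replicate numbers pair the samples. The replicate block lowered the count of calls over all genes to 1777 and left Nppa (3.56), Nppb (1.79) and Mme (-2.77) called. With it 5 cyclic GMP genes were called. At this depth Nppc, with at most 1 read in a library, was below the filter of the main fit, and it did not pass without a filter.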
